A study of Mus musculus with 4 samples.

Results

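Germline and meiosis genes are a set of 34 named genes, of 56980 in the deposited matrices, that are normally used in sperm and egg precursors and are silent in most somatic tissues. They were found by gene symbol, each symbol matched 1 gene, and all 34 were present. By role, 16 belong to the piRNA pathway and the nuage, 10 to the synaptonemal complex and the chromosome axis, 2 to meiotic entry and recombination, 3 are RNA-binding or gene regulators of germ cells, and 3 are surface or metabolic proteins of germ cells. Expression was read in sorted skin epithelial cells of mouse embryos with or without loss of the methyltransferases for H3K9me3, which marks silent chromatin.

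The 4 single-cell RNA-seq libraries came from dorsal skin at E16.5 per the labels, 1 embryo each, from cells positive for Epcam and α6 integrin. The study's list of litters gives a younger age for its single-cell litter, and the labels were followed. The 2 Ctrl embryos were Suv39h1 f/f, Suv39h2-/-, Setdb1 f/f without Cre, and the 2 TKO (triple knockout) embryos had the same alleles with K14CreERT2. Tamoxifen was given to both groups, and both were Suv39h2-/- in every tissue, so the comparison is of added Suv39h1 and Setdb1 loss. The K14 promoter drives the recombinase in basal keratinocytes and their offspring, and the study describes the embryos as mosaic, so a TKO library mixes recombined and other cells.

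piRNAs are small RNAs that guide PIWI proteins to transposon transcripts, and much of their handling takes place in the nuage, a granule of germ cells built from Tudor-domain proteins. In meiosis, chromosomes are held along an axis of cohesin and HORMA-domain proteins and are then joined by the synaptonemal complex. In somatic cells many promoters of such genes are rich in CpG, carry DNA methylation, and are bound through an E-box or an E2F-type word by a repressor complex that contains Mga, Max and E2f6.

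The promoters of 5 raised members are shown because they hold these words. They are the 5 with the largest change in keratinocytes among those with an entry in the RefSeq table of promoters, which gives 250 bases before and 50 after the start on build GRCm38.p6. Capitals mark CACGTG, an E-box that reads the same on both strands, and GCGGGA with its reverse complement TCCCGC, an E2F-type word. None of the marked words overlapped. The windows are Tcfl5 at chr2:180642642-180642941, minus strand, Stag3 at chr5:138280259-138280558, plus strand, Ddx4 at chr13:112652261-112652560, minus strand, Piwil1 at chr5:128735996-128736295, plus strand and Rec8 at chr14:55617916-55618215, plus strand.
Tcfl5: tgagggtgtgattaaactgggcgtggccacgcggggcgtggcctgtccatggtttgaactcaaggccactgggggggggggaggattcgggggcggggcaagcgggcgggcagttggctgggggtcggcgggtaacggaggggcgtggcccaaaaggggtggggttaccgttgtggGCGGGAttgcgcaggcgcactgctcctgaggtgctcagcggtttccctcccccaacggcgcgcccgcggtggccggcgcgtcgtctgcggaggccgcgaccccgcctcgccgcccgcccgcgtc
Stag3: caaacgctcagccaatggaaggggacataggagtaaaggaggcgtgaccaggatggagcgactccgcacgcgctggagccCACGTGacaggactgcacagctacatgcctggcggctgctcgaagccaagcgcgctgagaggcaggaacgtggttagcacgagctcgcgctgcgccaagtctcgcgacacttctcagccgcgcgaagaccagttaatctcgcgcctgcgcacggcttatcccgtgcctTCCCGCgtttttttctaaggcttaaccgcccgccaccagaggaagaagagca
Ddx4: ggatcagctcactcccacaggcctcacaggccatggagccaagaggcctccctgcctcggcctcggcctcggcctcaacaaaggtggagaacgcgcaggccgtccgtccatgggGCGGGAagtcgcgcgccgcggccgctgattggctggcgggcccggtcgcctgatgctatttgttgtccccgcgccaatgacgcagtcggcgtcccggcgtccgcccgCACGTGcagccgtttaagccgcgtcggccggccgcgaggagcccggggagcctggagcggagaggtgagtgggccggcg
Piwil1: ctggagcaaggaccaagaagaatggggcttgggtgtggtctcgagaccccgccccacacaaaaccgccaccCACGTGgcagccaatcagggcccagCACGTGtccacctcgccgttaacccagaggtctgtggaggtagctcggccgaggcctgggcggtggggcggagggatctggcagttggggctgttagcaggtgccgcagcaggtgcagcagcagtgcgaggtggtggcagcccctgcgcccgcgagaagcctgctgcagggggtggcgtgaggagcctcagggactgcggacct
Rec8: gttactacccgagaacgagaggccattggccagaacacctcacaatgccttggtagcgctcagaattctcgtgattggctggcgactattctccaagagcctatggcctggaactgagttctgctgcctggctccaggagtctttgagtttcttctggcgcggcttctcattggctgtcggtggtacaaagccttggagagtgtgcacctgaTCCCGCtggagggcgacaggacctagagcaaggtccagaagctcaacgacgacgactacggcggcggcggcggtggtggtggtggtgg

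Of the 34 members, 29 had an entry, and Rnf17, Tex15, Tdrd6, Piwil2 and Spo11 did not. CACGTG lay in a window of 14 of the 29 (48.3%), against 8.09% of the 27025 genes of the table. The E2F-type word lay in 13 (44.8%), against 22.0%. Among the 7 members with an entry that were raised in keratinocytes, 5 held the E-box, 5 held the E2F-type word and all 7 held either. Among the 22 that were not raised, the counts were 9, 8 and 12. The median number of CpG was 22.0 per member window and 7.0 over all windows of the table. These are matches of letters in windows around annotated starts, not measured binding.

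**Figure D1:**
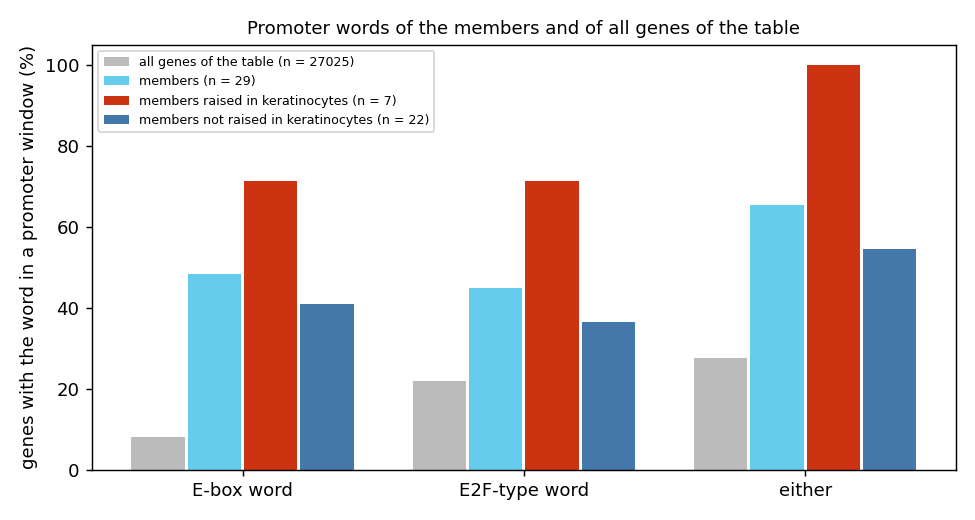
Bars give the share of genes (%) with the E-box word CACGTG, the E2F-type word GCGGGA or either in a promoter window, for all 27025 genes of the table, the 29 members with an entry, and these split into 7 raised and 22 not raised in keratinocytes. The members lie above all genes for both words (48.3% against 8.09% and 44.8% against 22.0%), and the 7 raised members have the highest bars.

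The cells fell as follows. Of 19789 barcodes, 9196 remained as keratinocytes (2847 and 2991 in Ctrl, 1567 and 1791 in TKO), at a median of 21966 and 17333 UMIs per cell in Ctrl and 30072 and 28052 in TKO. A UMI marks 1 captured molecule, and levels are given as CPM, the UMIs of a gene per 1000000 UMIs of the cells summed. Krt14, a keratin of basal cells, stood at 6630 to 9030 CPM in basal-like cells, Krt10, a keratin of differentiating cells, at 11400 to 25300 in differentiating-like cells, and Shh and Lhx2, genes of hair follicle buds, at 123 to 150 and 176 to 424 in hair follicle-like cells. Another 1568 cells were no keratinocytes, mainly immune-like (684) and fibroblast-like (518) cells, and they made up more of the TKO libraries (528 and 592) than of the Ctrl libraries (205 and 243). Any 2 libraries shared 2 to 12 barcodes. Of the targeted genes, Setdb1 stood at 67.6 and 58.2 CPM in Ctrl keratinocytes and 39.4 and 42.4 in TKO keratinocytes (log2 change −0.64 ± 0.13 SE, edgeR adjusted p = 0.0463). Suv39h1 was not called (log2 change −0.17, edgeR adjusted p = 0.472). Suv39h2 stood at 13.9 and 17.1 CPM in Ctrl and 22.5 and 16.1 in TKO although all 4 embryos carried the deletion (log2 change 0.30, edgeR adjusted p = 0.391). UMIs can come from parts of a transcript outside a deleted exon, so these levels do not measure recombination. Xist, which is expressed from the inactive X of females, had 4 to 8 UMIs in the keratinocytes of each library, and the Y-linked Uty had 6004 to 11038, so the 4 libraries did not differ in these sex-linked markers. All 4 had the pattern of male cells, so the values here speak for male embryos only. The paper states that its sequencing groups held both sexes, which these markers do not show here.

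In keratinocytes, 9 members rose in TKO: Tdrd1, Ddx4, Rnf17, Piwil1 and Tex15 of the piRNA pathway, Syce2, Stag3 and Rec8 of the synaptonemal complex and axis, and the germ cell transcription factor Tcfl5. Of the members tested, only Brdt, a bromodomain protein of the testis, fell. UMIs were summed per library and tested over all genes with the quasi-likelihood test of edgeR at an adjusted p under 0.05. A total of 22 members passed its filter on low counts, 12 of these were not called, and the other 12 members were too low to test. Over all 19954 genes tested, 4.26% rose and 2.54% fell. The median log2 change was 1.07 over the members tested and −0.02 over all genes tested, a description only, since a gene can pass the filter through the group in which it is high. Counting all 34 members, 21 were higher in both TKO libraries than in both Ctrl libraries, 2 were lower in both, and 11 overlapped. Over all genes tested, 29.0% were higher in both TKO libraries and 27.2% were lower in both. The 34 include the 12 members too low to test, so the 2 sets are not alike. With 2 libraries a group, an exact two-sided permutation test of a gene cannot go below p = 0.33.

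**Figure D2:**
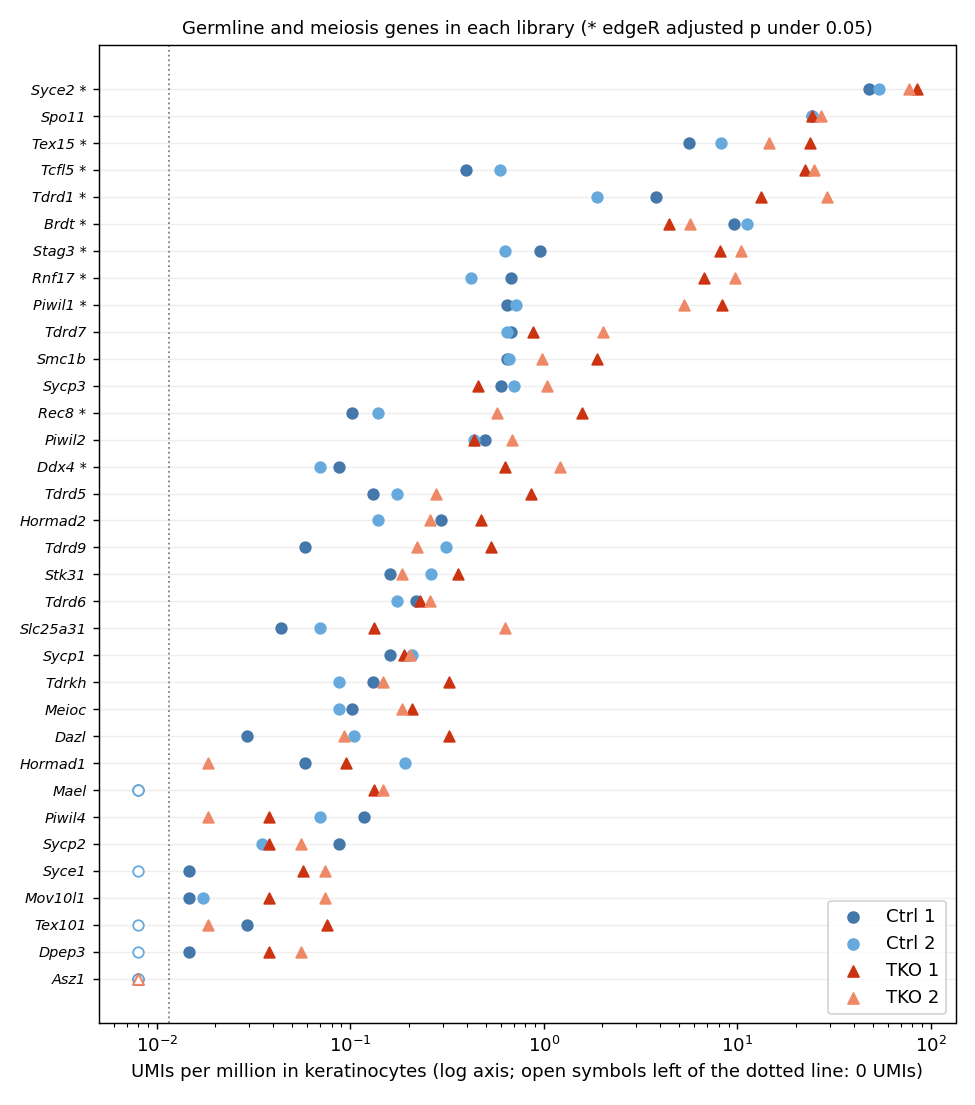
Each row is 1 of the 34 members and each symbol 1 library, placed by its CPM in keratinocytes on a log axis; circles are Ctrl, triangles are TKO, open symbols left of the dotted line are libraries with 0 UMIs, and asterisks mark edgeR adjusted p under 0.05. Tcfl5 shows the widest gap, Spo11 is at one level in all 4 libraries, and Brdt is the called gene with the triangles to the left.

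Tcfl5, a basic helix-loop-helix factor of spermatocytes, had the largest log2 change of the 22 members tested. It stood at 0.395 and 0.593 CPM in the Ctrl libraries (27 and 34 UMIs) and at 22.3 and 24.8 in the TKO libraries (1171 and 1343 UMIs), a log2 change of 5.57 ± 0.25 (SE, adjusted p = 0.00197). The TKO libraries lay close together and far from Ctrl. The gene (ENSMUSG00000038932.14) spans chr2:180263529-180284556 on the minus strand of GRCm39 and overlaps Col9a3, a collagen gene on the other strand. Col9a3 fell, from 194 and 254 UMIs in the Ctrl embryos to 30 and 37 in TKO (log2 change −2.54, edgeR adjusted p = 0.0168).

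Among the piRNA pathway genes, Rnf17, a RING and Tudor-domain protein of male germ cells, stood at 0.673 and 0.418 CPM in Ctrl and at 6.70 and 9.71 in TKO (log2 change 3.88 ± 0.36, edgeR adjusted p = 0.00771). Piwil1, a PIWI protein that binds piRNAs in spermatocytes and spermatids, stood at 0.644 and 0.715 in Ctrl and at 8.28 and 5.30 in TKO (3.30 ± 0.30, edgeR adjusted p = 0.00707). In both genes each TKO library was well above each Ctrl library, but TKO 2 was the higher for Rnf17 and TKO 1 for Piwil1. Ddx4, the mouse vasa RNA helicase and a classical germ cell marker, was scarce, with 6 UMIs in Ctrl 1, 4 in Ctrl 2, 33 in TKO 1 and 66 in TKO 2 (3.50 ± 0.55, edgeR adjusted p = 0.0275). Tdrd1, a Tudor-domain scaffold that binds PIWI proteins, was already present in Ctrl, at 3.78 and 1.88 CPM, and stood at 13.3 and 29.1 in TKO (2.89 ± 0.52, edgeR adjusted p = 0.0369). Tex15, which is needed for transposon silencing and for meiotic recombination in males, stood at 5.60 and 8.25 in Ctrl and at 23.7 and 14.5 in TKO (1.45 ± 0.29, edgeR adjusted p = 0.0467). The spread between the TKO libraries was wide for both, and the groups did not overlap.

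Other piRNA pathway members did not pass the test. Tdrd5 had 9 UMIs in Ctrl 1, 10 in Ctrl 2, 45 in TKO 1 and 15 in TKO 2, and Tdrd7 had 46 and 37 against 46 and 109 (edgeR adjusted p = 0.149 and 0.212). The higher TKO library was TKO 1 for Tdrd5 and TKO 2 for Tdrd7. Piwil2 (34 and 25 against 23 and 37), Stk31 (11 and 15 against 19 and 10), Tdrd6 (15 and 10 against 12 and 14) and Tdrd9 (4 and 18 against 28 and 12) had adjusted p from edgeR between 0.485 and 0.736. Mael, a transposon silencing factor of the nuage, was at 0 UMIs in both Ctrl libraries and at 7 and 8 in TKO, too few to test; against 3 counts over the Ctrl group as the floor, this is at least 5.89-fold higher. Tdrkh, Piwil4 and Mov10l1 were also too low to test, and Asz1 had no UMI in any library.

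Of the axis and synaptonemal complex genes, the cohesin subunits Stag3 and Rec8, which are specific to meiosis, both rose. Stag3 stood at 0.951 and 0.628 CPM in Ctrl and at 8.11 and 10.5 in TKO (3.53 ± 0.31, edgeR adjusted p = 0.0069). Rec8 had 7 and 8 UMIs against 83 and 31 (3.11 ± 0.62, edgeR adjusted p = 0.0465). Smc1b, another meiotic cohesin subunit, had 44 and 38 UMIs against 99 and 53 and was not called (1.11 ± 0.38, edgeR adjusted p = 0.149). Syce2, a central element protein of the synaptonemal complex, was abundant in Ctrl, at 47.7 and 53.6 CPM, and stood at 84.3 and 76.8 in TKO (0.65 ± 0.10, edgeR adjusted p = 0.0245). Syce2 overlaps Gcdh, a mitochondrial dehydrogenase gene on the other strand, which had 973 and 937 UMIs against 859 and 739 and was not called (adjusted p = 0.885). Sycp1 and Sycp3 were not called. Sycp1, its transverse filament, had 11 and 12 UMIs against 10 and 11, and Sycp3, of its lateral elements, had 41 and 40 against 24 and 56 (edgeR adjusted p = 0.934 and 0.834). Hormad2 had 20 and 8 UMIs against 25 and 14 (adjusted p = 0.472), and Sycp2, Syce1 and Hormad1 were too low to test.

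Spo11, the enzyme that makes the DNA breaks of meiotic recombination, was expressed in both genotypes at 24.3, 24.4, 24.4 and 26.9 CPM in Ctrl 1, Ctrl 2, TKO 1 and TKO 2 (log2 change 0.06 ± 0.12, edgeR adjusted p = 0.789). Meioc, which keeps germ cells in meiotic prophase, had 7 and 5 UMIs against 11 and 10 (adjusted p = 0.263). Dazl, an RNA-binding regulator of germ cells, had 2 and 6 against 17 and 5 and was not tested. The 3 germ cell surface and metabolic genes Tex101, Slc25a31 and Dpep3 were too low to test, with 34 UMIs of Slc25a31 in TKO 2 as the highest value and 7 in TKO 1.

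Brdt stood at 9.60 and 11.3 CPM in Ctrl keratinocytes and at 4.45 and 5.67 in TKO keratinocytes (−1.05 ± 0.21, edgeR adjusted p = 0.0466). The same gene stood at 33.6 and 50.7 in the fibroblast-like cells of the Ctrl libraries and at 29.5 and 34.6 in those of the TKO libraries, above the keratinocytes of each library. Tex15 also stood higher in fibroblast-like cells, at 50.3 and 32.6 in Ctrl and 34.7 and 40.3 in TKO. The part of RNA from those cells in the keratinocyte values was not tested.

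The calls were repeated without each library, and the lone library left in a group was then assumed to vary like the pair of the other group. Without Ctrl 1, edgeR called 0 members in keratinocytes and 0 genes in all, while 8 members were higher at an unadjusted p under 0.05. The log2 changes of Tcfl5, Rnf17, Stag3 and Piwil1 lay between 2.98 and 5.86 over the 4 fits that each left out 1 library, and these 4 genes were called in the other 10 alternatives run. Without Ctrl 2 the raised members were these 4. Without TKO 1 there were 8, with Rec8, Syce2 and Tex15 lost and Tdrd7 and Slc25a31 gained, and without TKO 2 there were 11, with Tdrd5 and Smc1b gained. Brdt was called only without TKO 2 among these 4 fits. Over all alternatives Tex15 and Brdt were called in 3 of 11, Rec8 and Syce2 in 5 of 11, Tdrd1 in 7 of 11 and Ddx4 in 7 of 10.

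A second list of companion genes held other genes of the same pathways and 15 silencing factors. Of its 81 genes found in the matrices, 57 were tested in keratinocytes, 6 rose (4 pathway genes and 2 silencing factors) and 1 pathway gene fell, where 4.26% of all genes tested rose and 2.54% fell. Of the 19 further genes of meiotic entry and recombination, 3 rose: Meiosin, a factor that starts the meiotic program (18 and 11 UMIs in Ctrl, 131 and 134 in TKO, log2 change 3.41 ± 0.31), Iho1, needed for meiotic DNA breaks (40 and 39 against 180 and 151, 2.28 ± 0.26), and the recombinase Dmc1 (76 and 75 against 277 and 174, 1.79 ± 0.30), with adjusted p from edgeR of 0.00711, 0.013 and 0.0322. Of 11 further germ cell regulators, the RNA-binding protein gene Rbm46 rose (13 and 7 against 74 and 41, 2.74 ± 0.48, edgeR adjusted p = 0.034). Of 14 further piRNA pathway genes edgeR called 0, with 2 at an unadjusted p under 0.05, and DESeq2 called 1. That gene was Tex19.1, a germ cell factor of transposon control, with 1 and 0 UMIs in Ctrl against 31 and 10 in TKO (edgeR adjusted p = 0.0524). Of 10 further synaptonemal complex and axis genes edgeR called 0, with 1 at an unadjusted p under 0.05, and DESeq2 called 0. Hspa2, a chaperone of spermatocytes, fell (535 and 414 against 164 and 112, −1.56 ± 0.25, edgeR adjusted p = 0.0281). Without Ctrl 1 edgeR called 0 companions, with 8 higher at an unadjusted p under 0.05, and without Ctrl 2 only Meiosin, Iho1 and Atf7ip were raised.

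Factors that are known to silence germline promoters were measured in the same cells, and the 2 of 15 already counted rose against the same 4.26% of all genes. Atf7ip, a binding partner of Setdb1, rose (86.2 and 70.9 CPM in Ctrl, 206 and 246 in TKO, log2 change 1.51 ± 0.16, edgeR adjusted p = 0.011), as did the DNA methyltransferase Dnmt3b (8.28 and 9.61 against 20.4 and 15.6, 0.99 ± 0.17, edgeR adjusted p = 0.034). The other 13, among them Mga, Max, E2f6, Pcgf6, Dnmt1, Uhrf1 and Trim28, were not called.

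The members were then followed through the keratinocyte classes. In basal-like cells 14 members were tested, 8 rose (those raised in keratinocytes without Rec8) and Brdt fell, against 9.15% and 5.23% of all genes tested. In differentiating-like cells 9 were tested and Tcfl5, Rnf17 and Stag3 rose, against a background of 1.02% raised and 0.329% lowered. In hair follicle-like cells 10 were tested and 7 rose (Tcfl5, Rnf17, Stag3, Piwil1, Tdrd1, Tex15 and Syce2), against 3.22% raised and 3.03% lowered; Brdt was not called there (adjusted p = 0.0957). Tcfl5, Rnf17, Stag3, Piwil1 and Tdrd1 were called under each of the 12 alternatives run in basal-like and in hair follicle-like cells, and Tcfl5 in differentiating-like cells. Without Ctrl 1 these 5 were the raised members in basal-like cells, and Brdt was lost there. The differentiating-like sums rest on fewer cells (677 and 434 in Ctrl, 205 and 371 in TKO).

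Tcfl5 lay between 20.9 and 28.2 CPM in every class of both TKO libraries. In TKO 1 and TKO 2 it stood at 20.9 and 22.3 CPM in basal-like cells, 25.04 and 28.2 in differentiating-like cells, and 25.3 and 27.8 in hair follicle-like cells. In the Ctrl libraries it lay between 0.157 and 1.09 in all 3 classes. Its difference between the genotype effects of basal-like and differentiating-like cells was not called (log2 1.62 ± 0.44, edgeR adjusted p = 0.098).

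Tdrd1 had the same order of classes in Ctrl and TKO. In Ctrl 1 and Ctrl 2 it stood at 9.36 and 6.07 CPM in differentiating-like cells, 1.51 and 0.916 in basal-like cells, and 0.767 and 0.753 in hair follicle-like cells. In TKO 1 and TKO 2 these were 27.5 and 55.1, 11.3 and 23.5, and 5.56 and 12.4. In each library the differentiating-like cells were highest and the hair follicle-like cells lowest. The log2 change was 3.85 ± 0.44 in basal-like cells (edgeR adjusted p = 0.00394), and 2.32 ± 0.42 in differentiating-like cells, where edgeR did not call it (adjusted p = 0.0765) and DESeq2 did. In the test of that difference, over 16936 genes of which 4.26% were called, Tdrd1 was the 1 member called of 15 tested: the effect in differentiating-like cells minus that in basal-like cells was −1.56 in log2 units (± 0.20 SE, edgeR adjusted p = 0.0104). The call was lost without Ctrl 1, without Ctrl 2, at 5000 UMIs per cell and at a minimum of 3000 genes per cell (adjusted p from edgeR 0.176, 0.0961, 0.219 and 0.057), and the difference lay between −1.59 and −1.25 over all 11 alternatives.

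Piwil1 was nearly absent from differentiating-like cells. It stood at 0.852 and 1.05 CPM in Ctrl basal-like cells and at 9.69 and 7.04 in TKO, and at 0.937 and 0.837 against 10.8 and 8.45 in hair follicle-like cells. In differentiating-like cells Ctrl held 1 and 0 UMIs of it, and TKO held 7 and 2. It was too low to be tested in that class alone, and its effect was not shown to differ from that in basal-like cells (difference of log2 changes 0.26 ± 0.84, edgeR adjusted p = 0.914). Stag3 was raised in all 3 classes, to 7.56 and 11.7 CPM in basal-like cells, 4.80 and 4.72 in differentiating-like cells and 14.3 and 15.9 in hair follicle-like cells of TKO 1 and TKO 2. Rnf17 reached 6.45 and 8.39, 6.49 and 8.02, and 4.17 and 10.8. Between basal-like and hair follicle-like cells edgeR called 0 of 15 members for a difference in effect, with 0 at an unadjusted p under 0.05 and 0 with the size factors of DESeq2, against 0.59% of all genes.

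**Figure D3:**
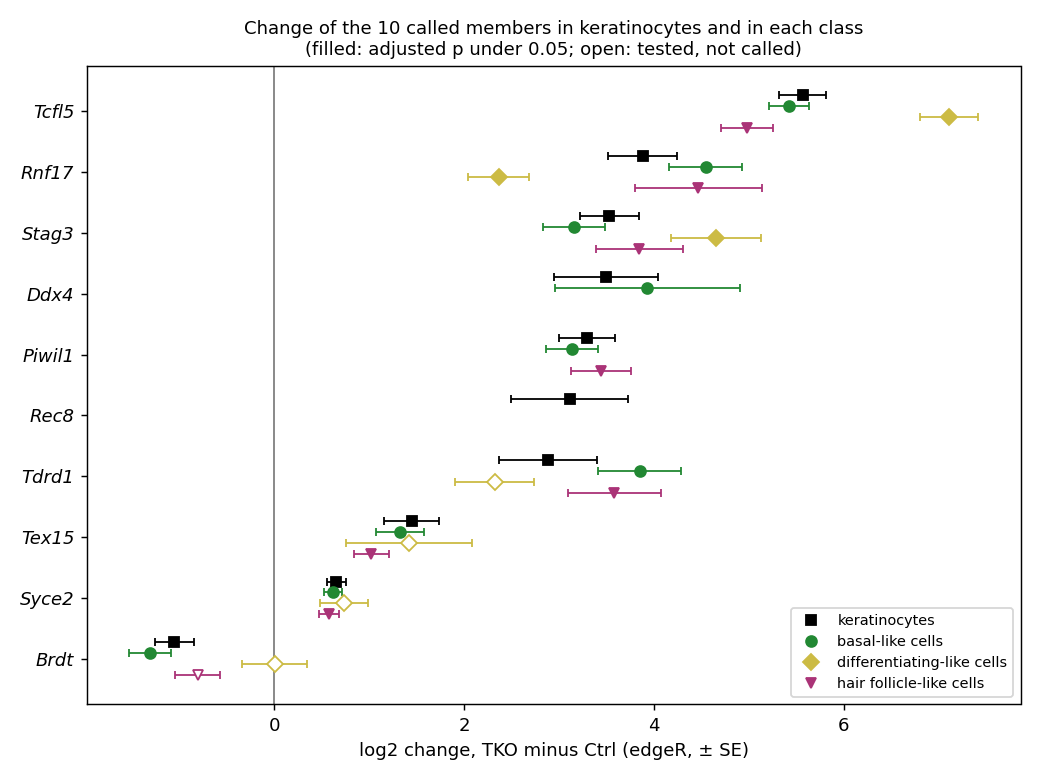
Points give the log2 change (TKO minus Ctrl) with its SE from edgeR for the 10 members called in keratinocytes, in all keratinocytes and in each class; filled points have an adjusted p under 0.05, open points were tested and not called, and missing points were too low to test. Tcfl5 lies furthest right in every class, from 4.98 to 7.11, and Brdt lies left of 0 except in differentiating-like cells.

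The called members were also read, as a description, in the keratinocyte clusters, made after alignment of the libraries. These include the Merkel-like cluster and unnamed clusters, which lie outside the 3 classes. The members were chosen for their call in the sum of these same cells. Their gap within the clusters follows in part from that choice, which was not made for all genes tested. In 18 clusters with at least 10 cells of each genotype, the level pooled over the TKO cells was above that pooled over the Ctrl cells in all 18 for Tcfl5, Rnf17, Stag3, Tdrd1 and Tex15, as it was for 2.06% of all genes tested in keratinocytes. It was above in 17 and below in 1 for Syce2, above in 16 and below in 1 for Piwil1, above in 16 and below in 2 for Ddx4, and above in 15 and below in 2 for Rec8. Brdt was lower in 15 and higher in 3. Without alignment, 57.3% of the TKO cells lay in 5 of 21 clusters in which over 95% of the cells were TKO. Tcfl5 ranged from 16.7 to 38.3 CPM over the TKO clusters and from 0 to 1.09 over the Ctrl clusters. Both top values came from the Merkel-like cluster, with 12 TKO and 55 Ctrl cells. A further unnamed cluster, led by Psca, Mal, Myh15 and Krt4, held 47 and 33 TKO cells and 1 and 2 Ctrl cells. Its TKO cells had Tcfl5 at 27.8, Rnf17 at 20.4 and Tex15 at 42.3 CPM. In the Merkel-like cluster, 30 UMIs of Rnf17 lay in 4 of the 12 TKO cells, 16 of them in 1 cell, and none in the 55 Ctrl cells. Without alignment the Merkel-like cluster held 53 Ctrl cells and 0 TKO cells, so these TKO cells are in it only after alignment.

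The share of cells with a UMI was compared after each cell was thinned to 5000 UMIs, because the TKO cells were deeper, and shallower cells were dropped (24, 39, 4 and 7 in Ctrl 1, Ctrl 2, TKO 1 and TKO 2). Tcfl5 was then found in 5 of 2823 and 10 of 2952 Ctrl keratinocytes (0.177% and 0.339%) and in 157 of 1563 and 202 of 1784 TKO keratinocytes (10.0%, exact 95% interval 8.60 to 11.6, and 11.3%, 9.89 to 12.9). Unthinned, the shares were 0.878%, 1.07%, 39.2% and 40.7%. Tdrd1 was found in 1.67% and 0.915% of Ctrl and 5.12% and 11.9% of TKO keratinocytes at 5000 UMIs, Stag3 in 0.354% and 0.203% against 4.16% and 5.33%, Piwil1 in 0.283% and 0.339% against 4.10% and 2.75%, and Rnf17 in 0.248% and 0.136% against 2.69% and 3.53%. For each of these 5 genes both TKO libraries were above both Ctrl libraries. Intervals cover counting error only.

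Cells outside the keratinocytes were read for comparison, at a median of 16163, 13801, 19554.5 and 18299.5 UMIs per cell. Their UMIs can come from free RNA or from their own expression, and the part of each was not tested. In fibroblast-like cells Tcfl5 stood at 1.24 and 5.55 CPM in Ctrl and 7.24 and 8.06 in TKO. At 5000 UMIs, Tcfl5 was found in 0% and 1.67% of all cells outside the keratinocytes in Ctrl and in 1.90% and 1.37% in TKO, below the TKO keratinocytes of the same libraries. Piwil1 was found in 0 of 526 and 0 of 585 such cells in TKO, which allows up to 0.57% and 0.513% at a limit of 3 counts. Tdrd1 was at 0.976% and 0% in Ctrl and 0.57% and 0.513% in TKO, and Stag3 was at 0% and 2.08% in Ctrl and 1.52% and 1.37% in TKO. Rnf17 was at 0.488% and 0.417% in Ctrl, at 0.38% in TKO 1 and at 2.05% in TKO 2, where 10 of 274 immune-like cells held it (3.65%, exact 95% interval 1.76 to 6.61) and 0 of 243 in TKO 1. Ddx4 was found in 0.32% and 0.841% of TKO keratinocytes. Outside the keratinocytes it was found in 0 of 526 and 1 of 585 cells in TKO (0% and 0.171%) and in 1 of 205 and 1 of 240 in Ctrl (0.488% and 0.417%), so these shares rest on single cells. Tex15 was found in 14.6% and 11.8% of the fibroblast-like cells in Ctrl, above its 9.21% and 7.29% in TKO keratinocytes.

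**Figure D4:**
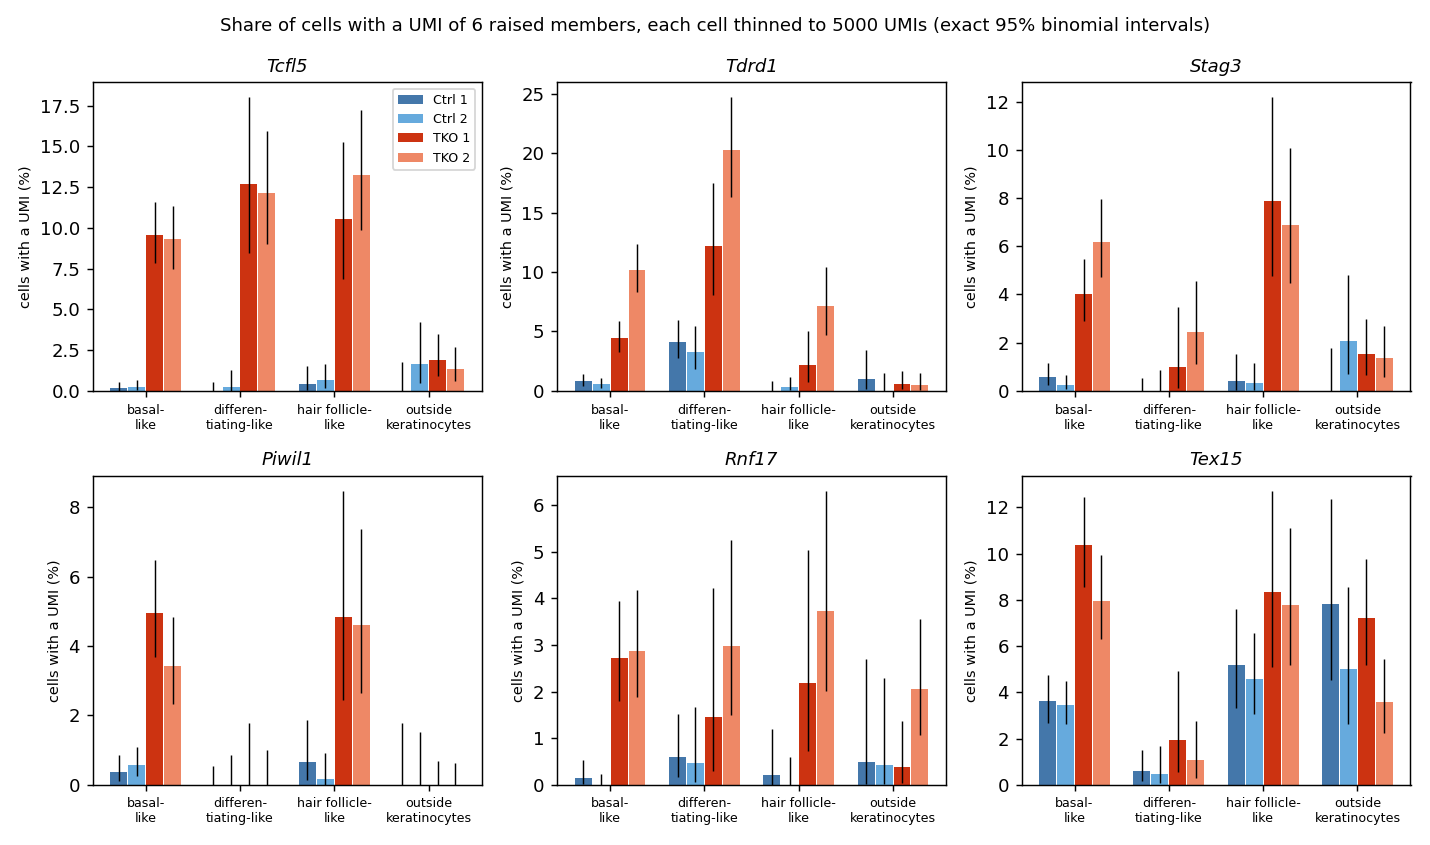
Bars give the share of cells (%) with at least 1 UMI of 6 raised members in each library, with exact 95% binomial intervals, in the 3 keratinocyte classes and in the cells outside the keratinocytes, each cell thinned to 5000 UMIs. Tcfl5 is high in all 3 classes of both TKO libraries, Tdrd1 is highest in differentiating-like cells, Piwil1 is at 0 there, and Tex15 is also found outside the keratinocytes.

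The members differed in how their UMIs were spread over cells. In TKO, the 614 and 729 Tcfl5-positive keratinocytes had up to 11 and 7 UMIs each, and 52.1% and 53.5% of them had 1. Piwil1-positive cells numbered 303 and 210, of which 70.3% and 75.2% had 1 UMI, with at most 8 and 6. Rnf17-positive cells were fewer, 100 and 139, of which only 32.0% and 27.3% had 1 UMI, with up to 17 and 22 in a cell. In both TKO libraries Rnf17 UMIs were gathered in few cells, whereas most Piwil1-positive cells held 1 UMI.

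Detection of several members in a cell was counted for the 7 raised members with under 5 CPM in Ctrl (Tdrd1, Ddx4, Rnf17, Piwil1, Stag3, Rec8 and Tcfl5). They were chosen on their level and call in these same cells, so the gap between genotypes follows from the choice and is a description. At 5000 UMIs, 2.87% and 2.03% of Ctrl keratinocytes held at least 1 of them, against 24.2% and 30.3% of TKO keratinocytes. At least 2 were found in 0 of 2823 and 0 of 2952 Ctrl cells, which allows up to 0.106% and 0.102% at a limit of 3 counts, and in 46 and 94 TKO cells (2.94% and 5.27%). No cell held more than 3. In cells outside the keratinocytes the shares with at least 1 were 1.95% and 4.58% in Ctrl and 3.99% and 5.13% in TKO. Most TKO cells showed none of the 7 at this depth, and at a few CPM a cell that uses a gene can give no UMI.

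**Figure D5:**
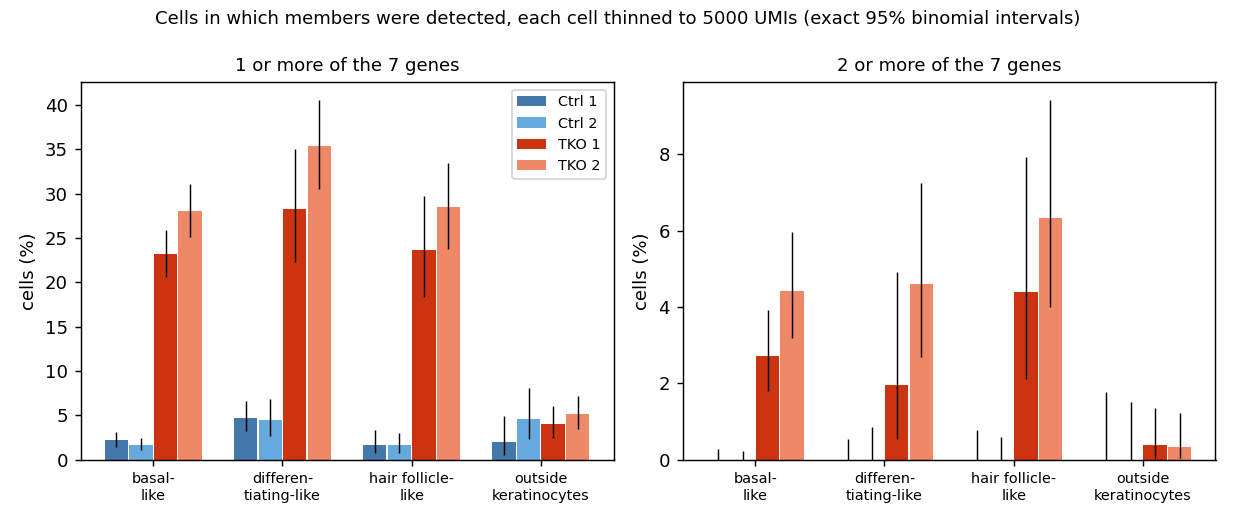
Bars give the share of cells (%) with a UMI of at least 1 (left) or at least 2 (right) of the 7 raised members that were low in Ctrl, per library, with exact 95% binomial intervals, each cell thinned to 5000 UMIs. The TKO keratinocyte classes stand above the Ctrl classes in both panels, and no Ctrl cell held 2.

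To relate this to the mosaic, TKO keratinocytes were sorted by the number of 4 other genes detected, 1700030N03Rik, Gm11884, Npffr1 and Col28a1, which are no members and were known from earlier results of these data to rise in TKO. Of cells with none of these, 22.1% and 26.9% in TKO 1 and TKO 2 held at least 1 of the 7 members. Of cells with 1 of these it was 32.0% and 38.6%, and of cells with 2 or more it was 25.8% and 37.4%. At 10000 UMIs per cell the 3 shares were 32.8%, 46.2% and 56.5% in TKO 1 and 43.3%, 53.7% and 62.2% in TKO 2. Ctrl cells with none of these genes held a member in 2.84% and 2.04% of cells at 5000 UMIs. All these shares pool the classes. In TKO 2 at 5000 UMIs, 701 of 904 basal-like and 170 of 370 differentiating-like cells had none of the 4 genes. In both classes, cells with 1 held a member more often than cells with none in both TKO libraries at both depths. In hair follicle-like cells at 5000 UMIs this held in TKO 2 and was reversed in TKO 1. At 10000 UMIs the shares there with none and with 1 were 33.3% and 39.5% in TKO 1. In TKO 2 they were 43.3% and 40.7%. In sparse counts the absence of a UMI does not mark a cell as unrecombined, so no share of recombined cells was drawn from this.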

How the data were processed

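For 2 Ctrl and 2 TKO embryos the authors deposited raw 3' UMI counts per gene and cell, not normalized, on GRCm39. The file headers name Cell Ranger 7.1.0, which is not the version in the published methods. The use of intronic reads is not given in the sources used here. The totals were 89655247, 72236508, 70749496 and 76650647 counts.

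Cells with at least 2000 genes and under 10% mitochondrial UMIs were kept (11221). Doublets were taken as the top Scrublet scores of each library at 0.8% per 1000 barcodes (457 cells), since the automatic threshold marked 61, of which 27 and 31 were in TKO. Cells were scaled to 10000 counts, reduced to 2000 variable genes and 30 components, aligned with an own implementation of Harmony, and clustered (scanpy 1.11.5, 20 neighbours, Leiden resolution 1.0). Clusters whose markers named another cell type were set apart first. Of the rest, those with at least 1000 CPM summed over 6 keratins were keratinocytes. They were clustered again without genes called between genotypes and named from at least 3 detected markers; clusters with fewer markers, or with more markers of another class than of their own among the leading genes, stayed unnamed (918 cells) and enter the keratinocytes only.

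Counts were summed per library and population and tested in R 4.3.3 with edgeR 4.0.16 (quasi-likelihood, TMM, filterByExpr), with Benjamini-Hochberg adjustment over all genes tested. Differences between classes were tested as an interaction with library as a term. DESeq2 1.42.0, other filters, depths, doublet, gene and clustering settings, a replicate block and leaving out each library were alternatives. The edgeR test of the keratinocyte sums and that of the difference between classes were also run on simulated sums with known changes. The other steps had no simulated test. P-values measure the spread between 2 embryos a group.

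The members and all lists were chosen with earlier results of these data known. Members called in any population were named with all libraries, other tested members with at least 10 UMIs in a library in short form, the rest by counts. Companions were named if called, up to 4 a group; Tex19.1 was chosen after its values were seen. Positions come from GENCODE vM39, promoters from RefSeq (GRCm38.p6).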

Additional observations from a re-analysis of the deposited data

Results flagged for a closer look

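Tdrd1 had a genotype effect that differed between classes. The effect in differentiating-like cells minus that in basal-like cells was −1.56 in log2 units (± 0.20 SE, edgeR adjusted p = 0.0104). It was the 1 member called of 15, beside 4.26% of all genes, and the call was lost in 4 of 11 alternatives: without Ctrl 1, without Ctrl 2, at 5000 UMIs per cell and at a minimum of 3000 genes (edgeR adjusted p = 0.176, 0.0961, 0.219 and 0.057).

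Cells outside the keratinocytes, which no test of genotype used, had a higher level of Tcfl5, Tdrd1 and Ddx4, of the 10 members called in keratinocytes, in both TKO libraries than in both Ctrl libraries, counting members with at least 10 UMIs over the TKO libraries. Over all 34 members, 16 had that many UMIs and 9 were higher in both, against 22.8% of all genes with that many, a description only, since the minimum was set on the TKO side. Piwil1 was below that number, with 3 UMIs in TKO 1, 1 in TKO 2 and 0 in both Ctrl libraries. Levels are CPM, UMIs of a gene per 1000000 UMIs. Tcfl5 stood at a mean of 2.80 CPM in TKO and 1.31 in Ctrl, Tdrd1 at 1.01 and 0.259, and Ddx4 at 0.801 and 0.261. The shares of cells at 5000 UMIs did not follow for Ddx4 (0.488% and 0.417% in Ctrl, 0% and 0.171% in TKO) and overlapped for Tdrd1 (0.976% and 0% against 0.57% and 0.513%). Of the Tcfl5 UMIs, 28 of 39 in TKO 1, 17 of 29 in TKO 2, and all 2 and 8 in Ctrl 1 and Ctrl 2 lay in fibroblast-like cells, where the levels were 1.24 and 5.55 CPM in Ctrl and 7.24 and 8.06 in TKO. For Ddx4, 11 of the 14 UMIs of TKO 2 lay in fibroblast-like cells. These cells also differed in makeup, with 244 and 280 immune-like cells in TKO against 63 and 97 in Ctrl, and the parts of free RNA and of their own expression were not tested.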

How the results depend on the processing

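Of the members raised in keratinocytes, 4 were called with no expression filter and 5 with the replicate block (Tdrd1, Tex15, Rec8 and Syce2 lost). Brdt, the 1 member lowered, was lost with no expression filter, with the block, at 5000 UMIs per cell, with doublets kept and at a minimum of 3000 genes, leaving 0. Members raised and lowered in keratinocytes also changed when a library was left out, as given above. In basal-like cells 5 to 9 rose and 0 to 1 fell without a library, and 0 fell at 5000 UMIs per cell. In differentiating-like cells 8 rose with no expression filter, 1 with the block, and 2 to 5 without a library. In hair follicle-like cells Brdt was lowered (1 member) with doublets kept and at a minimum of 3000 genes. Members with an effect that differed between basal-like and differentiating-like cells numbered 3 with no expression filter and with uncorrected components, 0 at 5000 UMIs and at 3000 genes, and 0 to 1 without a library. Companions raised were 3 and lowered 0 with no expression filter, with 0 to 8 raised and 0 to 1 lowered without a library. Cells with at least 2 members differed by 10.7 percentage points at 10000 UMIs per cell. The cause of these changes was not tested. No called change turned its sign.

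The labels give no shared origin to equal replicate numbers, and the deviations of Ctrl 1 and TKO 1 from their group means were correlated at −0.33 over genes, so the numbers were not taken as pairs. With 2 libraries a group, the sign means that Ctrl 1 deviated more like TKO 2 than like TKO 1. The source of this was not tested. Sex-linked genes did not separate the libraries of a group. Under a crossed replicate block, chosen after seeing the data, 9 members were raised and 1 lowered in keratinocytes, 5 were raised in differentiating-like cells, and 11 companions were raised and 2 lowered, while the counts in basal-like and hair follicle-like cells were as without it. Over all genes in keratinocytes, 3469 were called with the crossed block, 1356 with no block and 753 with the replicate block. The replicate block moved the counts in basal-like and hair follicle-like cells and of the companions by no more than 1.5 times. Neither block was run for the differences between classes, which have library as a term, or for the cells with at least 2 members.

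With 2 embryos a group and few UMIs for most members, a gene that was not called is not shown to be equal, and 12 members could not be tested.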
